A study of Mus musculus with 12 samples.

Results

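B-cell identity genes were followed in fractions sorted for CD115, the receptor for colony stimulating factor 1 that is carried by monocytes, to describe how much B-cell RNA those fractions held. The genes were Cd79a, Cd79b, Ms4a1, Pax5, Ebf1, Cd22, Fcer2a, Cr2 and Cxcr5. They were taken by their symbols, 9 of 52553 features in the count tables, and all 9 passed the filter on low counts that left 20135 features for testing. The cells came from C57BL/6 male mice, from the mononuclear fraction of spleen or peripheral blood, by magnetic sorting with beads against CD115. In 1 pair of groups spleen and liver were intact, and in the other pair 70% of the liver was resected 24 h before collection with the spleen left in place. Each of the 4 groups (spleen intact, spleen resected, blood intact and blood resected) had 3 libraries of total RNA, each pooled from 5 mice. None of the 12 libraries came from splenectomized mice, there was no sham-operated group, and no age was given.

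B cells recognise antigen through a surface immunoglobulin that signals through the paired chains CD79a and CD79b. The transcription factors EBF1 and PAX5 switch on the genes of this receptor complex and hold the cell in the B lineage. CD20 (Ms4a1), the inhibitory sialic acid binding receptor CD22, the low-affinity IgE receptor CD23 (Fcer2a), the complement receptor CD21 (Cr2) and the CXCL13 receptor CXCR5 are surface proteins of mature B cells. In the spleen CD23 is known as a marker of follicular B cells, CD21 is highest on marginal zone B cells, and CXCR5 brings B cells into the follicle. Sorting for CD115 is meant to enrich monocytes, so RNA of these genes is described here as B-cell signal beside that of the sorting marker. In such bulk samples, fewer B cells and less of an RNA per B cell cannot be told apart.

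Upstream sequences are shown for 4 members because these genes carried the largest differences (Cr2 and Fcer2a), the reference level (Cd79a) and the only EBF1 site found (Cd22). RefSeq promoter windows on GRCm38.p6 held 6 of the 9 members, while Cd79b, Ms4a1 and Cxcr5 had no entry there. The count files were made on GRCm39, so these coordinates belong to the RefSeq build only. Stretches annotated as untranslated exon were left out. Each line runs 5′ to 3′ on the strand of the gene, and capitals mark motif matches.
Cr2, chr1:195176720-195176969, minus strand, E-box in capitals: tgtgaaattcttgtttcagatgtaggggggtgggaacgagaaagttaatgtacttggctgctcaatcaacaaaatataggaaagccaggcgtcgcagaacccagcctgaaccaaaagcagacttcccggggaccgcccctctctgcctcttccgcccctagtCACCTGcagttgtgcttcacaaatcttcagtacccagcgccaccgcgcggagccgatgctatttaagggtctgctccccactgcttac
Fcer2a, chr8:3690862-3691111, minus strand, the one of its start sites with matches, E-boxes and a STAT6-type site in capitals: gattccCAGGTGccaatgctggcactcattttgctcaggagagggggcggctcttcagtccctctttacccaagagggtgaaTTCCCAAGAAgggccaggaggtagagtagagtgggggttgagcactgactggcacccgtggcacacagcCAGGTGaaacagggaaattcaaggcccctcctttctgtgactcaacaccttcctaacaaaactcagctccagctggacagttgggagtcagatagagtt
Cd79a, chr7:24897247-24897380, plus strand, E-box and PU.1 core in capitals: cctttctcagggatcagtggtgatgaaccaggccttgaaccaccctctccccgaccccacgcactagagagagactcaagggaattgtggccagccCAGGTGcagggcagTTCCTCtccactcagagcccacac
Cd22, chr7:30879029-30879176, minus strand, EBF1 site in capitals: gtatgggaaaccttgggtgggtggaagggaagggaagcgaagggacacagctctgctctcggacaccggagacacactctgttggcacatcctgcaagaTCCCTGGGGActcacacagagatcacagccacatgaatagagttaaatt
Motifs were searched on both strands in the 250 bases before each start site. A member was counted if any of its windows matched, and Fcer2a and Ebf1 had more than a single window. The shares given beside the members are of single windows, so the measures are not alike. The E-box CAGGTG, bound by E2A-type factors of the B lineage, was found in 4 of the 6 members (Cr2, Fcer2a, Cd79a and Cd22, in Cd22 outside the stretch shown) and in 17.2% of all 32851 windows. The EBF1 site, TCCC and GGGA with 2 bases between them, matched in Cd22 alone among the 6, and in 0.779% of all windows. The PU.1 core GAGGAA was present in Cd79a and Ebf1 and in 23.3% of windows, and the STAT6-type site, TTC and GAA with 4 bases between them, in Fcer2a and in 5.85% of windows. No member window held the octamer ATTTGCAT, which 1.6% of all windows held. None of these matches was tested for function.

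The libraries held 36990033 to 46401368 counts in all, so that each member had at least 263 counts in every library and counting error was small beside the spread between libraries. Haemoglobin transcripts took 13.2% to 34.2% of the counts in blood and 0.081% to 3.47% in spleen. Levels are given as CPM, the counts of a gene scaled to a common library total, with the totals adjusted by TMM, a method that lines up the libraries on the bulk of their genes. Csf1r, the gene of CD115, was present in all 12 libraries at 209 to 1192 CPM. There were 3 libraries that stood apart from their groups in the markers of other cells. In the third blood intact library the summed level of 9 T-cell genes was 2695 CPM against 1022 and 1054 CPM in the other two, and Dntt, the terminal transferase of lymphoid precursors, was at 623 CPM against 3.52 and 7.27 CPM. Lck alone made up 1202 CPM of that T-cell sum, and 3 of the 9 T-cell genes (Cd8a, Cd5 and Cd247) were lower there than in the other two. In the third spleen resected library the summed level of 6 neutrophil genes was 11450 CPM against 4159 and 4443 CPM, and in the third blood resected library it was 16300 CPM against 3009 and 4066 CPM. These same libraries had the lowest summed level of the 9 members in their groups. The sum was 515 CPM in that blood intact library against 1660 and 2366 CPM, 1175 CPM in that spleen resected library against 2892 and 4093 CPM, and 679 CPM in that blood resected library against 1066 and 1545 CPM. The counts of members called are given below with all libraries, without the third blood intact and the third spleen resected libraries, which are named there as 2 libraries, and without all 3.

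Levels of different members were compared after dividing by transcript length, in CPM per kilobase of the longest annotated transcript. In spleen intact libraries Cd79a was at 855 ± 47.6 (SD, n = 3) and Cd79b at 378 ± 30.2 CPM per kilobase. The surface genes followed, with Ms4a1 at 204.5 ± 13.2, Cd22 at 177.5 ± 14.0, Fcer2a at 150.2 ± 43.5 and Cr2 at 100.5 ± 7.52 CPM per kilobase. Pax5 was at 94.0 ± 11.3, Cxcr5 at 53.6 ± 2.68 and Ebf1 at 27.9 ± 5.26 CPM per kilobase. On the same scale Csf1r was at 96.3 ± 16.1, between Cr2 and Pax5. In blood resected libraries the order had changed at its lower end. Cr2 was at 2.38 ± 0.662 and Fcer2a at 5.80 ± 2.18 CPM per kilobase, below Ebf1 at 9.02 ± 3.06, while Cd79a was still highest of the 9 at 247.5 ± 101 and Csf1r stood at 142 ± 12.8.

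The receptor chains were highest in spleen intact libraries. Cd79a was at 1324, 1191 and 1222 CPM in spleen intact and at 968, 780 and 371 CPM in spleen resected libraries. In blood it was at 429, 626 and 134.5 CPM in intact and at 507, 363 and 212 CPM in resected libraries. Thus the spleen groups did not overlap, whereas the blood groups did, with the lowest value in the third blood intact library. Cd79b was at 587, 500.5 and 535 CPM in spleen intact and at 226, 221 and 107 CPM in spleen resected libraries. Its blood values were 155, 279 and 58.9 CPM in intact and 194, 121.5 and 62.1 CPM in resected libraries. Every spleen resected library was below every spleen intact library, and spleen resected libraries lay within the range of blood intact.

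Among the surface genes, Ms4a1 was at 664, 585 and 638 CPM in spleen intact and at 342, 290 and 79.6 CPM in spleen resected libraries. In blood it was at 270, 423 and 107 CPM in intact and at 266, 158 and 92.1 CPM in resected libraries. The spleen groups were again apart and the blood groups were not. Cd22 was at 715, 645 and 755.5 CPM in spleen intact and at 635, 394 and 162.5 CPM in spleen resected libraries. Its blood levels were 180.2, 242 and 52.5 CPM in intact and 219, 147 and 118 CPM in resected libraries. All 6 blood libraries were below all 3 spleen intact libraries for both genes.

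Cr2 showed the widest range of the 9. It was at 600.2, 595 and 678 CPM in spleen intact, at 369, 281 and 47.5 CPM in spleen resected, at 57.8, 74.5 and 11.3 CPM in blood intact and at 15.9, 18.2 and 10.2 CPM in blood resected libraries. Spleen intact was above all other libraries, and 2 of the 3 spleen resected libraries were above all blood libraries. Fcer2a was at 274, 287 and 449 CPM in spleen intact and at 280.2, 212.5 and 13.7 CPM in spleen resected libraries. In blood intact it was at 90.4, 109 and 17.2 CPM, and in blood resected at 15.2, 16.4 and 7.40 CPM. The blood groups did not overlap, although the lowest intact and the highest resected value were close. In the third spleen resected library Fcer2a was as low as in blood after resection. Cxcr5 was at 153, 145 and 159.8 CPM in spleen intact and at 335, 152 and 129 CPM in spleen resected libraries. In blood it was at 89.8, 174 and 30.4 CPM in intact and at 51.2, 41.0 and 28.1 CPM in resected libraries. It was the only member with a higher mean in spleen resected (205 CPM) than in spleen intact libraries (152.5 CPM), and that mean rested on the first library.

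For the lineage factors, Pax5 was at 749.9, 664 and 844 CPM in spleen intact and at 745, 441 and 193 CPM in spleen resected libraries. Its blood values were 292, 319.6 and 78.1 CPM in intact and 204, 150.4 and 111 CPM in resected libraries. Ebf1 was at 152, 145 and 203 CPM in spleen intact, 194, 122 and 70.5 CPM in spleen resected, 96.1, 119 and 25.3 CPM in blood intact and 73.8, 50.4 and 37.7 CPM in blood resected libraries. Both factors overlapped between intact and resected libraries in either tissue. By their group means 6 of the 9 members ran from spleen intact through spleen resected and blood intact to blood resected. The exceptions were Cxcr5, Ms4a1, with 237 ± 139 CPM in spleen resected and 267 ± 158 CPM in blood intact, and Cd22, with 158 ± 96.8 CPM in blood intact and 161 ± 51.9 CPM in blood resected (SD, n = 3). Neighbouring groups in this order were often not separable. Spleen resected and blood intact libraries overlapped for all 9 members, and blood intact and blood resected libraries for 8.

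**Figure D1:**
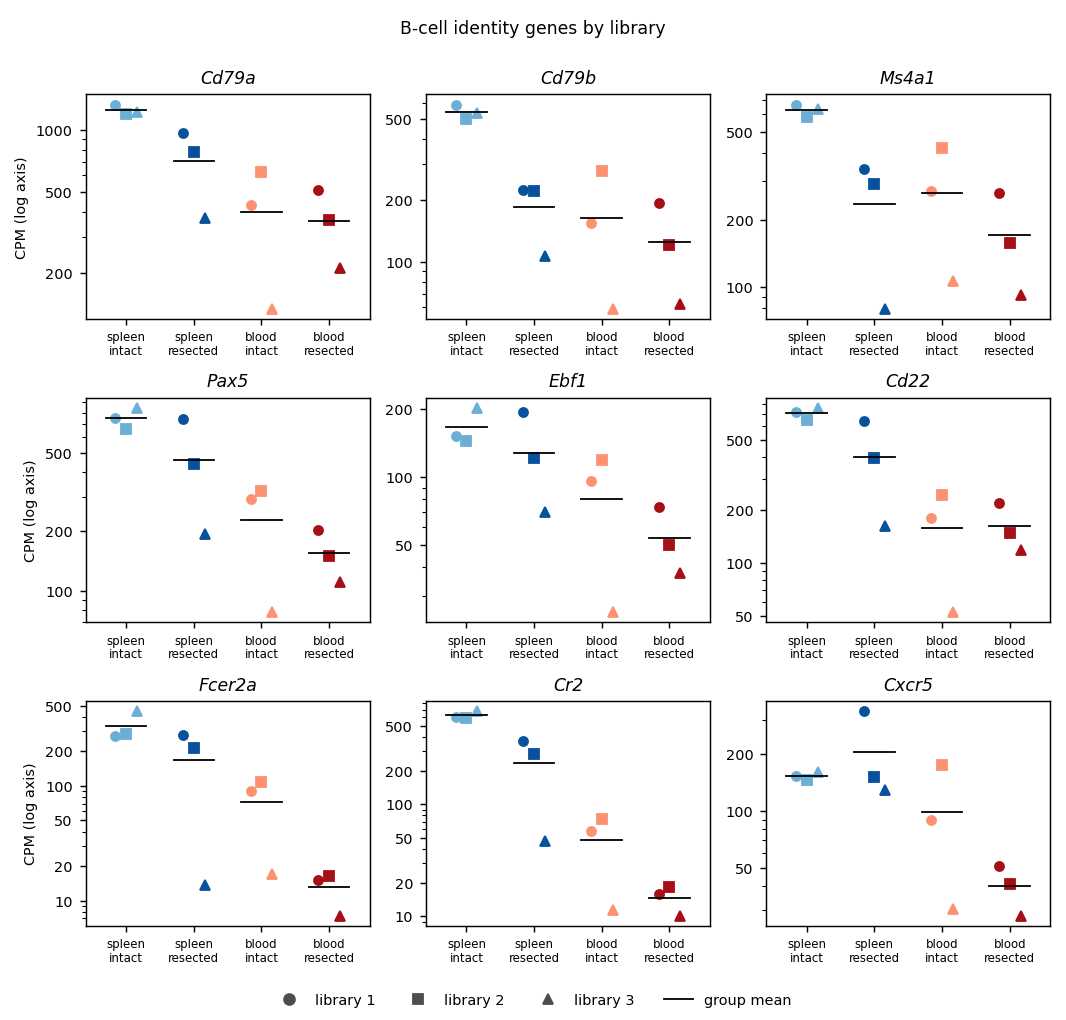
Level of each B-cell identity gene in the 12 libraries, in TMM-scaled CPM on a log axis, by group, with the number of each library as the symbol and the group mean as a line. Spleen intact libraries are high and close together, and the third spleen resected and the third blood intact libraries are the lowest of their groups for all 9 genes, with Cr2 reaching 10.2 and Fcer2a 7.40 CPM in blood resected.

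The first comparison asked how blood and spleen fractions of intact mice differed. All 9 members were lower in blood, and the libraries of the tissues did not overlap for 8 of them (background 20.9% of all features tested), Cxcr5 being the exception. Called at an adjusted p under 0.05 and a change of more than 2-fold, Cr2 was lower by 13.1-fold and Cd22 by 4.45-fold. The log2 fold change was -3.71 (SE 0.80) for Cr2, with an adjusted p of 0.0214 after Benjamini-Hochberg adjustment of the quasi-likelihood p of edgeR, and -2.15 (SE 0.58) for Cd22, with an adjusted p of 0.046 by the same test. Calls in this direction were made for 2 of the 9 members, against 3.49% of all features tested called lower and 3.86% called higher. The 7 others had log2 fold changes of -2.22 (Fcer2a) to -0.64 (Cxcr5) and did not pass. The median over the members was -1.71 on the log2 scale, beside -0.02 over all features. Without the 2 libraries, 4 members were called, Cr2 at -3.13, Cd22 at -1.63, Fcer2a at -1.65 and Pax5 at -1.19, and without all 3 there were 6, with Cd79a and Cd79b added. Of single libraries, leaving out any spleen intact library or the first blood intact library left 0 members called, and leaving out any other but the third spleen resected library left 1, Cr2.

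After resection, blood was again below spleen for all 9 members. Cr2 was lower by 15.8-fold, Fcer2a by 13.0-fold and Cxcr5 by 5.11-fold, and these 3 were called, against 6.87% of all features called lower and 6.28% called higher in blood. Their log2 fold changes were -3.98 (SE 0.81), -3.70 (SE 0.99) and -2.35 (SE 0.57), with adjusted p of 0.00931, 0.0282 and 0.0198 by edgeR. Cr2 and Cxcr5 were also the only members whose libraries did not overlap between the tissues, against 25.1% of all features. Receptor chains and Ms4a1 differed least, at -0.97 (SE 0.53) for Cd79a, -0.55 (SE 0.54) for Cd79b and -0.46 (SE 0.60) for Ms4a1, none of them called. The median was -1.30 over the members and -0.14 over all features. Without the 2 libraries 7 members were called, all but Cd79b and Ms4a1, and without all 3 there were 6, Cd79a being lost. The count also hung on single libraries, being 0 without the third blood resected library, 1 without the first or second blood resected or the first spleen resected library, and 5 without the third blood intact library. Haemoglobin differed with tissue, and the tissue comparisons were repeated on other scalings. With haemoglobin left out, the median of all features moved from -0.02 to 0.10 in intact and from -0.14 to -0.02 in resected mice on the log2 scale. With another set of size factors (RLE) the medians were 0.05 and -0.03. The sign of every member stayed negative under either scaling in both comparisons, but in intact mice only Cr2 was called under either, Cd22 being lost.

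Resection was next compared within blood. No member was called (background 13.9% of all features tested, 6.11% lower and 7.8% higher). At an unadjusted p under 0.05 there were 3, Fcer2a, Cr2 and Cxcr5, all lower after resection. Over all features 7233 of 20135 passed that limit, a share near that of the members. Fcer2a had a log2 fold change of -2.47 (SE 0.94), a 5.54-fold lower level, with an adjusted p of 0.0882 by edgeR. For Cr2 the values were -1.70 (SE 0.74) with an adjusted p of 0.129, and for Cxcr5 -1.29 (SE 0.56) with an adjusted p of 0.125, by the same edgeR test. The 6 others lay between -0.63 (SE 0.60) for Ms4a1 and 0.03 (SE 0.56) for Cd22. Only Fcer2a had libraries that did not overlap, against 19.0% of all features. Whether any member was called depended on single libraries and on the test used. Without the third blood intact library 3 members were called, Fcer2a, Cr2 and Cxcr5, and the same 3 were called when the third spleen resected library was left out as well, at -2.94, -2.17 and -1.72. Without all 3 libraries that stood apart these 3 were called again, at -2.65, -1.96 and -1.51. Leaving out the third spleen resected library alone gave 1 call, Fcer2a, as did DESeq2 on all libraries, with -2.47 and an adjusted p of 0.0165.

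Within spleen, 8 of the 9 members had a negative log2 fold change after resection, and none was called (background 1.38% of all features, 0.596% lower and 0.78% higher). At an unadjusted p under 0.05 there were 2, Cd79b at -1.55 (SE 0.55), a 2.93-fold lower level, and Ms4a1 at -1.41 (SE 0.60), a 2.65-fold lower level. Their adjusted p by edgeR were 0.152 and 0.223. Over all features 4182 of 20135 had an unadjusted p under 0.05 here, a share near that of the members. For 5 members (Cd79a, Cd79b, Ms4a1, Cd22 and Cr2) each resected library was below each intact library, against 17.7% of all features. Cxcr5 stood alone with a positive value, 0.43 (SE 0.55), which turned to -0.12 without the first spleen resected library. The median was -0.83 over the members and 0.05 over all features, and by DESeq2 1 member, Cd79b, was called at -1.57 with an adjusted p of 0.0362. Without the 2 libraries none was called, and the values for Cd79a, Pax5 and Cd22 came to -0.51, -0.34 and -0.45, while without all 3 Cd79b was called at -1.27 with an adjusted p of 0.0421 by edgeR. Neutrophil genes moved the other way in these libraries, with summed levels of 1055 to 1757 CPM in spleen intact and 4159 to 11450 CPM in spleen resected, and their part in the lower levels of the members was not tested. Csf1r, the sorting marker, was also higher after resection, at 0.99 (SE 0.32) in spleen and 0.94 (SE 0.32) in blood. It was not called, with adjusted p by edgeR of 0.119 and 0.0594. Every resected library was above every intact library for Csf1r in both tissues, against 17.4% of all features in spleen and 19.4% in blood.

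The change after resection was compared between blood and spleen by an interaction term. No member was called, against 0.283% of all features, 0.219% with a positive and 0.0646% with a negative term. None had an unadjusted p under 0.05, beside 3484 of the 20135 features tested. The value nearest to the threshold was that of Cxcr5, whose log2 change in blood minus that in spleen was -1.72 (SE 0.78) with an adjusted p of 0.293 by edgeR. DESeq2 gave 0 members too. Without the 2 libraries, Fcer2a was called at -2.49, with an adjusted p of 0.0474 by edgeR, and without all 3 at -2.21.

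**Figure D2:**
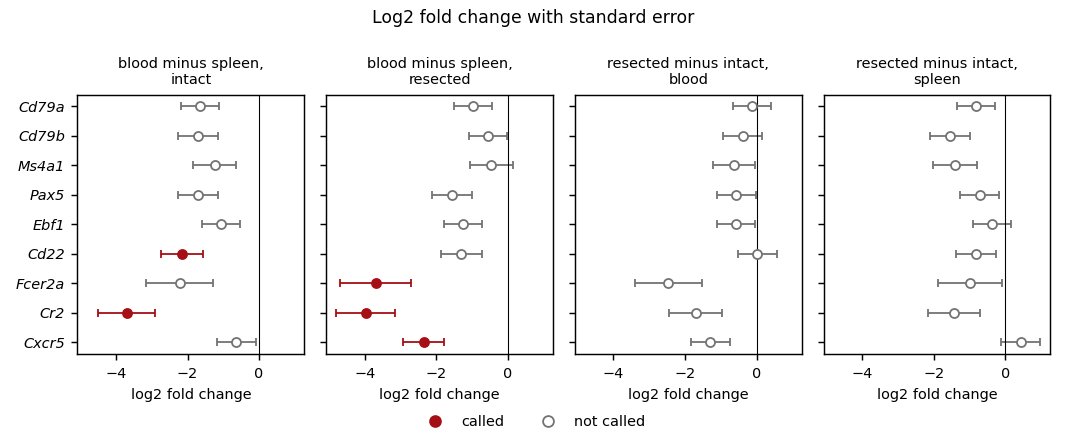
Log2 fold change of each B-cell identity gene in 4 comparisons, with bars of 1 standard error from edgeR, filled red points where the gene was called. Filled points are Cd22 and Cr2 for blood against spleen in intact mice, and Fcer2a, Cr2 and Cxcr5 for blood against spleen after resection, with Cr2 at -3.71 and -3.98.

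Each member was also set against Cd79a in the same library, as a percent of its CPM with no correction for length, to describe how the members changed relative to one another. With 3 libraries against 3 an exact permutation test cannot go below a p of 0.10, and these ratios are described by whether the groups overlap. In blood, 5 of the 8 ratios were lower in every resected library than in every intact library, against 5.86% of 14933 features with a mean of at least 1 CPM, and none was higher in that way, against 8.14%. Fcer2a was at 21.1%, 17.4% and 12.8% of Cd79a in blood intact and at 3.00%, 4.52% and 3.49% in blood resected libraries, a difference in log2 ratio of -2.21 with a pooled SD between libraries of 0.33. Cr2 was at 13.5%, 11.9% and 8.41% of Cd79a in blood intact and at 3.14%, 5.01% and 4.80% in blood resected libraries, a difference of -1.39 (pooled SD 0.36). Both complement and IgE receptor transcripts were therefore lower per Cd79a transcript after resection. This held also against the third blood intact library, where Cd79a itself was at its lowest. Cxcr5 was at 20.96%, 27.8% and 22.6% of Cd79a in blood intact and at 10.1%, 11.3% and 13.2% in blood resected libraries (difference -1.04, pooled SD 0.20). Ms4a1 and Ebf1 differed by less, -0.59 (pooled SD 0.16) and -0.38 (pooled SD 0.17), also without overlap. Cd79b, Pax5 and Cd22 overlapped.

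The choice of the reference gene mattered for some of these ratios. Fcer2a was lower after resection in blood without overlap against each of 3 references, by -2.21 on the log2 scale against Cd79a, -1.62 against Ms4a1 and -1.81 against Pax5. Cr2 and Cxcr5 were lower against Cd79a and Pax5, and overlapped between the groups against Ms4a1, at -0.80 and -0.45. Ebf1 was lower against Cd79a, and its difference was 0.20 against Ms4a1 and 0.02 against Pax5.

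In spleen the ratios of 3 members to Cd79a were lower in every resected library, and 1 was higher. Cd79b, the partner chain of Cd79a, was at 44.3%, 42.0% and 43.8% of Cd79a in spleen intact and at 23.3%, 28.4% and 28.8% in spleen resected libraries, a difference in log2 ratio of -0.70 (pooled SD 0.12). Ms4a1 went from 50.2%, 49.1% and 52.2% in intact to 35.3%, 37.2% and 21.4% in resected libraries, a difference of -0.73 (pooled SD 0.31). Cr2 was at 45.4%, 49.95% and 55.5% in spleen intact and at 38.1%, 36.1% and 12.8% in spleen resected libraries, a difference of -0.95 that came to -0.43 without the third resected library. These lower ratios stood against 1.46% of all features. Cd79a itself was lower in every spleen resected library, which raised the ratio of features that did not fall with it. The 1.46% is therefore not a like background for members that fell with Cd79a. Against Ms4a1 in place of Cd79a, the difference for Cd79b was 0.03. Cxcr5 was at 11.6%, 12.1% and 13.1% of Cd79a in spleen intact and at 34.6%, 19.4% and 34.7% in spleen resected libraries, a difference of 1.22 (pooled SD 0.35), and it was higher against all 3 references. A higher ratio to Cd79a was however shared by 59.8% of all features in spleen. Fcer2a was at 28.9% and 27.3% of Cd79a in the first and second spleen resected libraries, within the 20.7% to 36.7% of spleen intact, and at 3.68% in the third, which was close to the blood resected libraries.

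**Figure D3:**
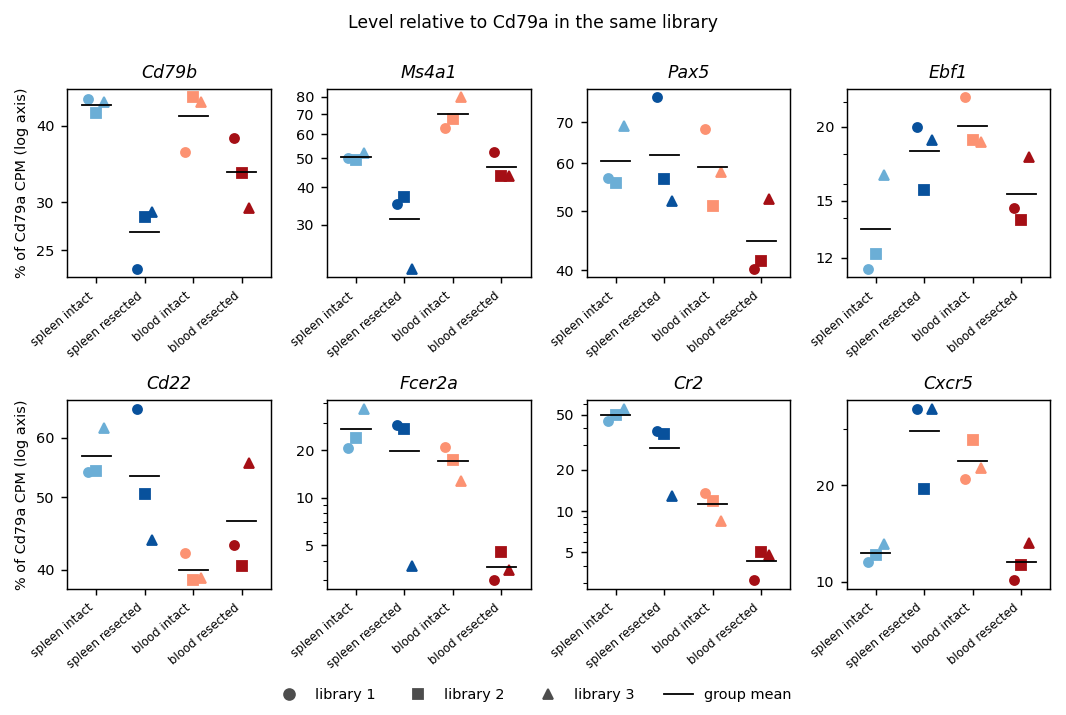
Level of each of 8 members as a percent of Cd79a in the same library, on a log axis, by group, with the library number as the symbol and the group mean as a line. Fcer2a and Cr2 are at 3.00% to 4.52% and 3.14% to 5.01% in blood resected libraries, and Cxcr5 is high in spleen resected and blood intact libraries.

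Further genes of the B lineage were read from 7 lists of 62 genes, of which 59 had a row in the tables and 58 were tested. The immunoglobulin genes Ighm, Ighd and Igkc were not analysed here. In intact mice 15 of the 58 were called lower and 3 higher in blood than in spleen, which was 31.0% of those tested beside 7.35% of all features. The lower ones were 4 of 12 genes of receptor signalling, 2 of 9 transcription factors, 3 of 10 genes of survival and homing, 3 of 9 of marginal zone and follicular B cells, 1 of 7 of immature B cells and 2 of 6 of germinal centre B cells. In receptor signalling they included Cd72, a coreceptor, at -3.13 (SE 0.56) Fcrl1, an Fc receptor-like protein, at -2.82 (SE 0.50) and Blnk, the adaptor below the receptor, at -1.82 (SE 0.48) on the log2 scale. Among the factors Pou2af1, the octamer coactivator, was lower at -1.87 (SE 0.48). Of the receptors for survival factors Tnfrsf13c, the BAFF receptor, was lower at -2.10 (SE 0.48), and S1pr3, a sphingosine phosphate receptor of marginal zone B cells, at -4.45 (SE 0.69). The 3 higher in blood were Dntt, Zbtb32, a zinc finger factor of B-1 and memory B cells, at 2.95 (SE 0.55), and Cxcl13, the ligand of CXCR5 that stromal cells and macrophages make, at 5.71 (SE 1.28). Dntt was at 3.52 and 7.27 CPM in the blood intact libraries other than the third. The number called lower fell to 5 without the first spleen intact library, to 7 without either other spleen intact or the first blood intact library and to 8 without the second blood resected library. The number called higher was 0 without the first or second and 1 without the third spleen intact library, and 6 without the 2 libraries.

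After resection 14 of the 58 were called lower and 5 higher in blood than in spleen, 32.8% of those tested beside 13.2% of all features. Cd72 (-2.51, SE 0.54), Fcrl1 (-1.69, SE 0.48), Blnk (-1.70, SE 0.48), Pou2af1 (-1.70, SE 0.47), S1pr3 (-4.18, SE 0.70) and Vpreb3, a gene of immature B cells (-2.92, SE 0.62), were lower here as well. Zbtb32 was at 24.9 to 67.8 CPM in blood resected and 4.72 to 9.59 CPM in spleen resected libraries. It was the 1 gene of the B-1 list called higher in blood in both comparisons. The number called lower in blood after resection was 2 without the second or the third blood resected, 3 without the first spleen resected, 4 without the second spleen resected or first blood resected, and 7 to 9 without any spleen intact or the first or second blood intact library. The number called higher was 3 without the first spleen resected or the third blood resected library.

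Within blood, 7 of the 58 rose and 3 fell after resection, 17.2% of those tested beside 13.9% of all features. Those that rose were Fcrlb, Cxcl13, Tnfsf13, Cd9, Fcrl5, Cd93 and Fas, and of these Tnfsf13 (APRIL), Cd9, Cd93 and Fas are also known from myeloid cells. Fcrlb was at 17.5 CPM in the third blood resected library and at 1.83 and 1.95 CPM in the other two. Cxcl13 was at 27.1, 88.4 and 383 CPM in blood resected and at 8.26, 4.96 and 15.9 CPM in blood intact libraries, and at 0.105 to 2.14 CPM in spleen. The genes that fell were Dntt and Rag1, of lymphoid precursors, and Cd5, which T cells also express. Without the 2 libraries 15 genes were called lower and without all 3 there were 11. Single libraries moved these counts, the number that fell being 1 without the second or the third blood resected library, 6 without the third spleen resected library and 10 without the third blood intact library. The number that rose was 4 to 7. Within spleen none of the 58 was called by edgeR. At an unadjusted p under 0.05 there were 17, beside 4182 of the 20135 features tested. DESeq2 called 1 higher and 7 lower. By edgeR 3 were called lower without the 2 libraries, and 7 lower and 1 higher without all 3. Without the third blood intact library alone edgeR called 6 lower and 1 higher.

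**Figure D4:**
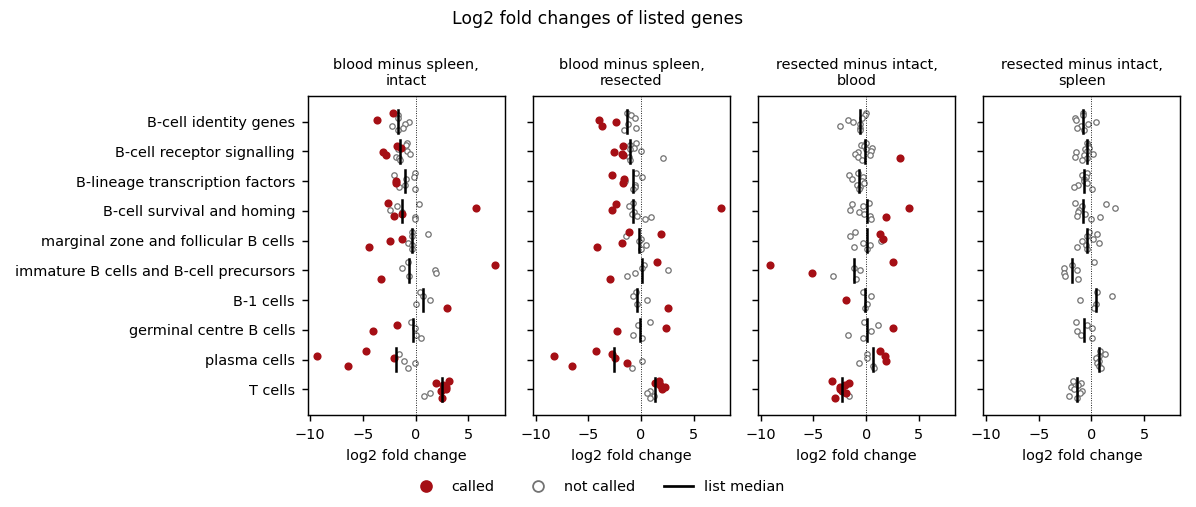
Log2 fold changes of the genes of 10 lists in 4 comparisons, filled red where called, with the median of each list as a bar. The B-cell lists lie mostly below 0 for blood against spleen while the T-cell genes lie above 0, and within blood the T-cell genes are below 0 after resection, with a median of -2.34.

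Plasma cells, the antibody-secreting end of the lineage, lose most of the 9 members as they form, and their genes took another course. Jchain, the joining chain of secreted IgM and IgA, was at 1862 to 2673 CPM in spleen intact, 3411 to 4183 CPM in spleen resected, 2.54 to 4.05 CPM in blood intact and 11.01 to 13.2 CPM in blood resected libraries. It was called lower in blood than in spleen in intact mice, at -9.39 (SE 0.31), and after resection, at -8.26 (SE 0.29), and higher in blood after resection, at 1.82 (SE 0.22). Of the 8 plasma cell genes 4 were called lower in blood than in spleen in intact mice and 6 after resection. Within blood 3 rose after resection (Jchain, Derl3 and Prdm1). Within spleen all 8 were positive with a median of 0.75, 4 at an unadjusted p under 0.05 and none called by edgeR. Over all features in spleen 4182 of 20135 had an unadjusted p under 0.05.

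Other cell types changed between the same groups. In blood 8 of 9 T-cell genes fell after resection, with summed levels of 1022 to 2695 CPM in intact and 173 to 330 CPM in resected libraries, and 6 of 6 neutrophil genes rose, from 101 to 455 CPM to 3009 to 16300 CPM summed. Between tissues, 7 of 9 T-cell genes were higher in blood of intact mice and 5 of 9 after resection, a direction opposite to that of the members. Genes of conventional dendritic cells were lower in blood for 3 of 6 in intact mice and 3 of 6 after resection, and of 7 genes of plasmacytoid dendritic cells 1, Ccr9, fell in blood after resection. Genes of follicular dendritic and stromal cells, which also carry CD21, were near absent from spleen, with sums of 3.24 to 8.19 CPM over 6 genes, and Ccl21a was at or below 3 counts in every library of both spleen groups. In blood the same sums were higher, at 32.2 to 58.0 CPM in intact and 99.4 to 433 CPM in resected libraries. They were mostly Clu and Cxcl13, at means of 34.3 and 9.71 CPM in intact and 57.4 and 166 CPM in resected libraries. In both blood groups the means of Madcam1, Ccl21a and Pdgfrb were at most 0.641 CPM, and that of Col1a1 at most 2.64 CPM. Macrophages make Cxcl13 too, and the presence of follicular dendritic or stromal cells in blood was not tested. Fdcsp, a further gene of this list, had no entry. Of 6 genes of red pulp macrophages, 4 rose in blood after resection. In blood 4 were lower than in spleen of intact mice, and 3 after resection. The sums over the 6 were 81.0 to 383 CPM in blood intact and 1106 to 1414 CPM in blood resected libraries. Hmox1 and Cd5l made up most of the resected sums, at means of 697 and 529 CPM, and Cd5l was not called. Spic and Vcam1 had means of 3.98 and 3.55 CPM there, against 98.2 and 955 CPM in spleen resected libraries. The highest intact sum held 334 CPM of Cd5l. The 6 erythroid genes had a median log2 fold change of 3.29 in spleen after resection, none called and 6 at an unadjusted p under 0.05 by edgeR. The 6 genes of NK cells had medians of -1.88 in blood and -2.88 in spleen after resection. None was called, and 5 were at an unadjusted p under 0.05 in either tissue. Of all 20135 features tested, 4182 in spleen and 7233 in blood had an unadjusted p under 0.05. The part of these other cell types in the levels of the members was not tested.

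Features whose profile was most like that of the members were found by the root mean square difference between their centred log2 CPM and the mean profile of the 9 members over the 12 libraries. Among 12740 features with a symbol and a mean of at least 1 CPM the nearest were H2-Ob at 0.17, Klhl14 at 0.17, Gad1 at 0.19, Slc9a7 at 0.23 and Gga2 at 0.26, followed by 4930426D05Rik, Snn, Kcng1, Swap70 and Mef2c at 0.28 to 0.29. H2-Ob encodes a chain of the MHC class II modulator H2-O of B cells, and Mef2c a factor of the B lineage. Of the members themselves Pax5 was nearest to the shared profile at 0.19, and Fcer2a at 0.95 and Cr2 at 1.10 were farthest.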

How the data were processed

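Total RNA of 12 libraries (4 groups of 3, each library from 5 mice) was sequenced as strand-specific mRNA libraries. The deposited tables hold estimated counts per gene symbol, RefSeq accession or unassigned transcript, which per the labels were made with STAR on GRCm39. The counting tool, annotation and handling of shared reads are not given in the sources used here. Of 40274 accession entries, 25340 matched a gene symbol and were summed with it, and the 2558 unassigned transcripts, 1.75% to 4.33% of the counts, entered neither the library sizes nor the tests. Cd22 was the sum of 3 entries, and each other member was 1 entry. Expected counts were rounded, filtered with filterByExpr, scaled by TMM and fitted in edgeR 4.0.16 (R 4.3.3) by the quasi-likelihood test over all 12 libraries with no covariate. Calls needed an adjusted p under 0.05 (Benjamini-Hochberg) over the 20135 features tested and an absolute log2 fold change above 1. DESeq2 1.42.0, RLE size factors, no low-count filter, only the groups compared, haemoglobin left out, a replicate block and leaving out libraries were alternatives, and the scripts were tested on simulated data. The simulated spread was smaller than that of these data, so that test does not show how reliable the calls are here. Named genes were the 9 members, Csf1r, genes of the lists and the 10 nearest profiles. The genes named from a list were not in every case those called with the smallest p. The genes whose values are given by library outside the members were picked after their values were seen. Members and lists were chosen with earlier results of these data known. Since libraries are pools, p-values measure the spread between pools, and counting limits cover counting error only. Motif windows and coordinates are RefSeq's on GRCm38.p6, and transcript lengths are of the longest annotated protein-coding transcript.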

Additional observations from a re-analysis of the deposited data

Results flagged for a closer look

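The ratio of Cxcr5 to Cd79a drew attention because its difference between resected and intact libraries ran in opposite directions in the tissues. It was -1.04 on the log2 scale in blood, where all 3 resected libraries were below all 3 intact libraries, and 1.22 in spleen, where all 3 resected libraries were above all 3 intact libraries. The difference between the tissues was not tested for this ratio. In the fit over all features, the interaction for Cxcr5 itself was -1.72 (SE 0.78) with an adjusted p of 0.293 by edgeR, and 59.8% of all features had a higher ratio to Cd79a in every spleen resected library.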

How the results depend on the processing

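Of 891 values of single members under the alternatives, 799 kept their sign and side of the threshold. In blood after resection 0 members were called, with DESeq2 1, and 0 to 3 with single libraries left out. In spleen 0 were called, with DESeq2 1, and 0 with any library left out. For blood against spleen in intact mice 2 were called, with RLE size factors, no low-count filter, only the groups compared or haemoglobin left out 1, with DESeq2 or the replicate block 5, and 0 to 2 with single libraries left out. After resection 3 were called and 0 to 5 with single libraries left out, and for the interaction 0 throughout these. Without the third spleen resected and the third blood intact libraries, chosen after seeing the data, the counts were 3, 0, 4, 7 and 1 in this order, and without the third blood resected library as well 3, 1, 6, 6 and 1. Signs turned in small differences. With single libraries left out, Cd79a in blood ranged from -0.55 to 0.35, Cd79b from -0.84 to 0.23 and Cd22 from -0.40 to 0.46, Cxcr5 in spleen from -0.12 to 0.68, and the interaction of Pax5 from -0.28 to 0.67, of Ebf1 from -0.63 to 0.22 and of Cr2 from -0.76 to 0.22. Without both libraries Cd22 in blood was -0.40, and the interactions of Cd79a, Ms4a1 and Pax5 were -0.043, -0.022 and -0.64. Without all 3 Cd22 in blood was -0.21 and the interaction of Pax5 -0.45. Under the replicate block the interactions of Ebf1 and Cr2 were 0.11 and 0.46. Ratios of Ebf1 in blood were 0.20 to Ms4a1 and 0.018 to Pax5, and of Cd79b in spleen 0.031 to Ms4a1. The cause was not tested. Same-numbered libraries deviated together with correlations of -0.05 to 0.23 and were not treated as paired, and the block changed no other count of members. Pools of 5 mice and 3 libraries a group limit precision.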

Other observations

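Ccr7, the receptor for the chemokines of the T-cell zone, was singled out after its values were seen. It was at 151%, 84.4% and 85.2% of Cd79a in blood intact and at 38.8%, 58.8% and 49.0% in blood resected libraries, a difference in log2 ratio of -1.09. In spleen it was at 19.7%, 24.4% and 38.3% of Cd79a in intact and at 145%, 91.5% and 143% in resected libraries, a difference of 2.23. A higher ratio to Cd79a in every spleen resected library was shared by 59.8% of all features. Neither pair of groups overlapped, as for Cxcr5, and T cells and dendritic cells express Ccr7 too. Cd72, chosen likewise, was at 28.5% to 36.6% of Cd79a in spleen intact and 19.6% to 22.5% in spleen resected libraries, and at 10.3% to 14.1% in blood intact and 6.65% to 8.36% in blood resected libraries, without overlap in either tissue.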
